A study of Drosophila melanogaster with 20 samples.

Results

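The 8 libraries described here hold the RNA of whole Drosophila melanogaster embryos labelled WT, wnt-4 RNAi, otk-1 RNAi and wnt-4 RNAi otk-1 RNAi, with 2 libraries in each group, of 20 libraries and 10 groups in the series. They were chosen because together they give an interaction: the log2 change of the double RNAi embryos against WT minus the sum of the log2 changes of both single RNAi groups. An interaction of 0 means that the single changes added up on the log2 scale. Each gene was placed by this value, and the genes that fell short of the sum, exceeded it or went the other way are described.

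Embryos of all ages were collected after 24 h of egg laying at 25 °C, and paired reads of 151 bp were made from their total RNA. Hairpins were driven by a recombined pair of GAL4 drivers, one active in the maternal germline (maternal alpha-tubulin) and one in most zygotic tissues (daughterless). The genotype of WT is given only as a control, and the sources used here do not say whether WT carried the drivers, nor which of the listed otk-1 hairpin stocks gave the RNA. Whether both libraries of a group stem from separate crosses is not stated, so p-values measure the spread between libraries, which may be technical. In whole embryos, fewer cells of a type and less RNA per cell cannot be told apart.

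Wnt ligands are secreted glycoproteins that bind Frizzled receptors together with a co-receptor. In the fly embryo wingless (wg) drives the canonical branch, in which beta-catenin (Armadillo) reaches the nucleus, while Wnt4 has been described as an opposing ligand. Off-track (otk, the otk-1 of the study) is a transmembrane relative of vertebrate PTK7 whose kinase domain is thought to be inactive, and otk2 is its neighbour and paralog. If a ligand and its receptor act in one line, removing both is expected to do little more than removing either, which is the question that an interaction addresses. The same shortfall is met for any gene that all crosses shift against a control by a like amount, whatever the shift comes from.

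Values are CPM (a gene's reads relative to the library's total) after scaling by the trimmed mean of M values (TMM), and genes were called at an adjusted p under 0.1 by edgeR's quasi-likelihood test with Benjamini-Hochberg adjustment over the 11154 genes tested. Total counts of the 8 libraries lay between 33641557 and 36594079. Errors of log2 values are standard errors of the fit, and n is 2 libraries in every group.

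The targeted genes matched one label and not the other. Off-track lies on chromosome 2R, positions 12001473 to 12019846 of dm6, and measured 199 and 178 CPM in WT, 121 and 124 in libraries labelled wnt-4 RNAi, 56.0 and 46.0 in otk-1 RNAi and 52.8 and 55.4 with double RNAi. Both groups with the otk-1 hairpin were therefore below all other libraries. Wnt4, on chromosome 2L at 7255419 to 7277171, measured 126 and 107 CPM in WT but 159 and 143 with the wnt-4 label, against 90.1 and 89.4 in otk-1 RNAi and 76.6 and 89.2 with double RNAi. The transcript of the targeted ligand was highest in the group named for its knockdown, so these are called the libraries labelled wnt-4 RNAi, or the wnt-4 label, throughout. Its interaction of -0.49 ± 0.22 was not called (adjusted p = 0.145), and the double RNAi libraries held less Wnt4 than the libraries labelled wnt-4 RNAi (log2 difference -0.87 ± 0.16, adjusted p = 0.0258). Both genes overlap another annotated gene, and since the sources used here do not say whether counting used the strand, reads of such partners cannot be told apart.

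Measures of embryo age moved with the groups. A stage score was taken as the mean log2 CPM of muscle, neuron and cuticle protein genes, which are expressed late, minus that of germ plasm, other maternal and blastoderm genes. It was -0.12 and -1.26 in WT, -2.62 and -2.83 with the wnt-4 label, -3.28 and -3.25 in otk-1 RNAi and -2.30 and -3.16 with double RNAi. The score itself was non-additive, with single changes of -2.04 and -2.58, a double change of -2.04 and an interaction of 2.57 (1.45 to 3.69 over the 16 ways of taking 1 library per group). WT replicate 1 stood above all other libraries of the series, whose scores without WT ran from -3.76 to -1.25. The part of this score in the interactions cannot be told apart from that of the hairpins by the groups alone, and a fit with the score as a covariate is given at the end.

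Each RNAi label gave fewer calls when the other hairpin was already present. This order was kept with a narrower gap without WT replicate 1, and it turned with the stage score in the fit. The libraries labelled wnt-4 RNAi differed from WT in 6600 genes (59.2% of those tested, 3313 higher, 29.7%, and 3287 lower, 29.5%), whereas the double RNAi differed from otk-1 RNAi in 3476 (31.2%, 2172 higher, 19.5%, and 1304 lower, 11.7%). For the otk-1 label the contrast was steeper, with 5072 genes (45.5%, 2342 higher, 21.0%, and 2730 lower, 24.5%) between otk-1 RNAi and WT and 72 (0.646%) between the double RNAi and the libraries labelled wnt-4 RNAi. The double RNAi against WT gave 6939 calls (62.2%), 3443 higher (30.9%) and 3496 lower (31.3%). At an unadjusted p under 0.05 the double RNAi and the wnt-4 label differed in 1715 genes, and DESeq2 called 356. Without WT replicate 1 the wnt-4 label gave 4189 calls against WT and 3922 on top of otk-1 RNAi, and the otk-1 label 1110 and 187. With the stage score in the fit the order turned, with 145 against 3808 calls for the wnt-4 label and 21 against 170 for the otk-1 label.

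**Figure D1:**
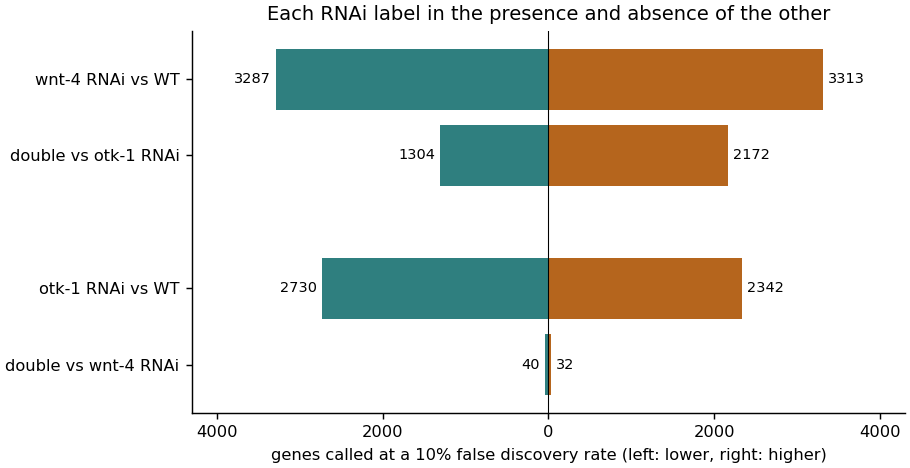
Genes called lower (left) and higher (right) for each RNAi label alone against WT and on top of the other hairpin; the axis counts genes at a 10% false discovery rate. The otk-1 label gives 2730 lower and 2342 higher genes against WT but 40 and 32 against the libraries labelled wnt-4 RNAi.

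Both estimates of one label's change come from separate libraries and can be set side by side. For the wnt-4 label, 2410 genes were called in both settings, and 2307 of them had the same sign. They made up 36.5% of the calls against WT, where 31.2% of all genes tested were called against otk-1 RNAi. Of the calls against otk-1 RNAi they made up 69.3%, where 59.2% of all genes were called against WT. Across all genes tested both estimates of the wnt-4 label's change had a Pearson correlation of 0.15 and a Spearman correlation of 0.29. For the otk-1 label, 39 genes were called in both settings, 35 with the same sign. They made up 0.769% of the calls against WT and 54.2% of the calls on top of the wnt-4 label. The matching shares of all genes tested were 0.646% and 45.5%, so each overlap was little above the share of all genes. For this label the correlations were 0.06 and 0.04. These are correlations across genes, which are not independent replicates, and the genes share each library's composition.

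The interaction was called in 2197 genes (19.7% of 11154), 1312 positive (11.8%) and 885 negative (7.93%). In 1912 of them (17.1% of genes tested) the double RNAi changed in the direction of the summed single changes but fell short of it. Only 24 genes (0.215%) exceeded the sum and 261 (2.34%) went against its sign. The sign of the interaction was the same in all 16 ways of taking 1 library per group for 2186 of the 2197 genes, against 45.1% of all genes tested. On the linear CPM scale it was the same for 2191, against 10419 of the 11154 tested. These genes were called from the same 8 libraries, so a steady sign follows in part from the calling. The median interaction of all genes tested was 0.017.

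**Figure D2:**
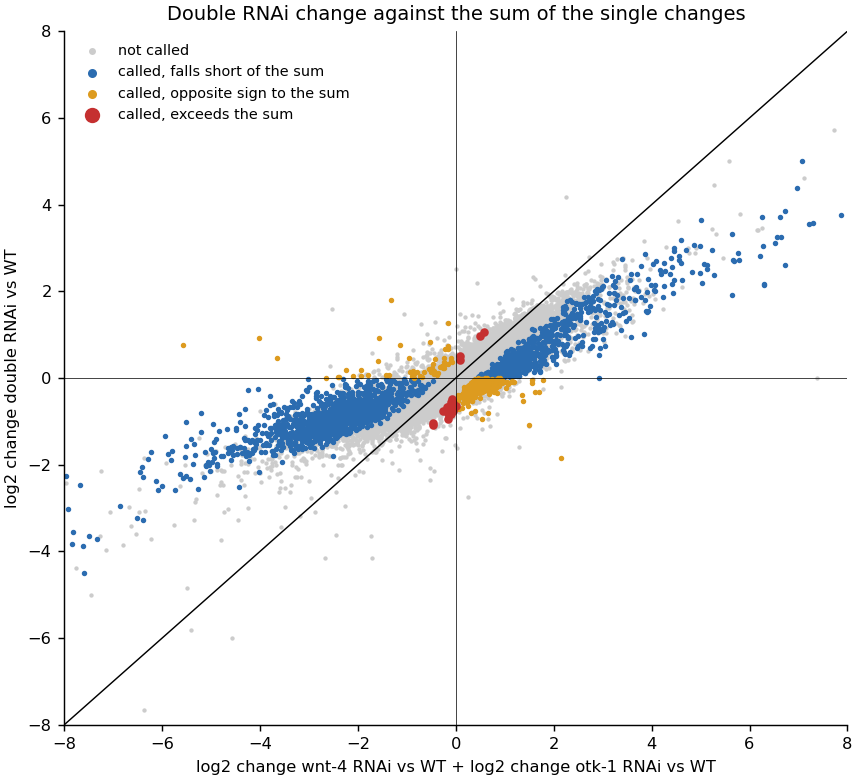
Log2 change of the double RNAi against WT (vertical) plotted on the sum of both single changes (horizontal), 1 point per gene, with the line of equality; 79 of the 11154 genes lie outside the axes. Genes that fell short (blue, 1912) lie between the line and the horizontal axis, those that exceeded the sum (red, 24) close to the origin, and those of opposite sign (orange, 261) across the horizontal axis.

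Among the genes that fell short, the double change had a median of 38.1% of the summed change. Of these 1912, 1722 were called in both single comparisons, against 4275 of all 11154 genes tested. In 1678 of the 1912 the double RNAi differed neither from the libraries labelled wnt-4 RNAi nor from otk-1 RNAi at the threshold. The same held for 7644 of the 11154, and a missed threshold does not show equal levels. The class was defined from these same changes, so both counts follow in part from its definition. Where the singles summed to a fall (1253 genes), the median changes were -1.26 for the wnt-4 label, -1.12 for otk-1 and -0.91 for both. Where they summed to a rise (659 genes) the medians were 0.85, 0.82 and 0.68. By these medians the 3 RNAi groups lay at like levels in this class and WT at another. Both WT libraries lay outside the range of the other 6 in 1521 of the 2197 called genes (69.2%), against 52.4% of all genes tested. They lay outside the range of the other 18 libraries of the series in 244 (11.1%), against 7.3%. These ranges were taken on counts relative to the library's total without TMM scaling. Single genes can therefore be placed differently by the CPM printed here, as Mlp60A is below.

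Of the muscle list, 15 of 23 tested members had a positive interaction and none a negative one (65.2% called), with a median sum of single changes of -2.35 and a median double change of -0.95. Mp20, a calponin-like muscle protein, measured 78.8 and 56.2 CPM in WT, 26.1 and 24.3 with the wnt-4 label, 20.7 and 23.9 in otk-1 RNAi and 36.2 and 23.7 with double RNAi. The sum of the single changes corresponded to 8.42 CPM, below every library, and the interaction was 1.85 ± 0.36 (adjusted p = 0.0216). Troponin T (up) was at 1110 and 558 CPM in WT and between 280 and 542 in the RNAi libraries, with an interaction of 1.82 ± 0.43 (adjusted p = 0.0336). For both genes both WT libraries stood above all RNAi libraries, by little in WT replicate 2 of up, and the double RNAi held the highest of the RNAi values.

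The 2 LIM and PDZ domain proteins of the muscle Z-disc named by the rule differed in how far the double RNAi lay from WT. Mlp60A had 437 and 230 CPM in WT, 137 and 141 with the wnt-4 label, 160 and 169 in otk-1 RNAi and 247 and 246 with double RNAi (interaction 1.85 ± 0.47). Here the double RNAi stood above both single groups and within the range of WT. Zasp66 was lower, at 16.4 and 9.53 CPM in WT and 2.88 to 7.70 in the RNAi libraries (interaction 1.66 ± 0.61, adjusted p = 0.0918). The list of muscle transcription factors, which act earlier, had 1 called member of 18 (5.56%), lbl (0.75 ± 0.28).

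Of 83 tested cuticle proteins, 23 had a positive interaction and none a negative one (27.7% called), and the list's median sum was -3.46 against a double change of -1.40. Cpr62Bc, a chitin-binding cuticle protein, had 10.7 and 21.0 CPM in WT, 7.13 and 5.72 with the wnt-4 label, 1.65 and 1.57 in otk-1 RNAi and 7.74 and 2.81 with double RNAi. Its otk-1 RNAi libraries were the lowest, and of the double RNAi libraries 1 lay just above those of the wnt-4 label and the other between both single groups. The change with the wnt-4 label alone did not pass the test. Of 21 genes of chitin and cuticle assembly, 13 were called, all positive. The chitin deacetylase Cda4 fell from 122 and 84.3 CPM in WT to 26.5 and 40.7 with the wnt-4 label and 40.0 and 34.9 in otk-1 RNAi, and it stood at 50.3 and 31.2 in the double RNAi (interaction 1.74 ± 0.41, adjusted p = 0.0334). Knickkopf (knk), which protects and organises chitin, had an interaction of 1.58 ± 0.45, and the ZP domain protein dyl 1.73 ± 0.61.

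Cuticle tanning had 4 positive and 1 negative member of 12 (41.7% called). The laccase straw (stw) gave 1.32 ± 0.33 and yellow-c 2.06 ± 0.44, while the negative member was the pigmentation gene y, described below with the other stock markers. Among 16 denticle and apical matrix genes, 4 were positive (25.0% called), forked (f), miniature (m), mey and dyl, with interactions of 1.15 to 1.73. Of 17 tracheal and salivary genes 6 were positive (35.3% called). The luminal chitin deacetylase verm measured 735 and 551 CPM in WT and 273 to 348 in the 6 RNAi libraries (1.06 ± 0.30, adjusted p = 0.0503), and the sulfotransferase pip 230 and 169 CPM against 83.5 to 106 (1.01 ± 0.22, adjusted p = 0.0262).

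Of 20 neuronal genes 7 were positive (35.0% called), among them the active zone proteins brp (96.2 and 54.1 CPM in WT, 25.1 to 32.8 in the RNAi libraries, interaction 1.38 ± 0.46) and Rim (1.54 ± 0.51), the potassium channel Sh (1.45 ± 0.48) and the glutamate transporter VGlut (1.36 ± 0.45). Of 25 septate junction genes, which seal epithelia, 5 were positive, a share of 20% that is near the 19.7% of all genes. The transmembrane protein mesh of smooth septate junctions, on 3R at 31178389 to 31195762, measured 306 and 216 CPM in WT, 89.1 and 120 with the wnt-4 label, 114 and 103 in otk-1 RNAi and 130 and 92.6 with double RNAi. All 6 RNAi libraries overlapped and lay below WT. The single changes of -1.32 and -1.27 summed to a level of 43.6 CPM, and the interaction was 1.35 ± 0.37 (adjusted p = 0.0458).

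Its partners in smooth junctions, Tsp2A (1.36 ± 0.34) and Ssk (1.16 ± 0.38), were called as well, as was the lipid phosphatase wun (0.55 ± 0.16). Gliotactin (Gli), which marks tricellular corners, gave 0.44 ± 0.16 (adjusted p = 0.0895), from 208 and 188 CPM in WT to 112 and 125 in the double RNAi. The pleated junction genes cora (0.56 ± 0.27) and Fas3 (0.44 ± 0.24) did not pass the test, nor did the polarity genes dlg1 (0.00 ± 0.17) and l(2)gl (0.27 ± 0.13).

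**Figure D3:**
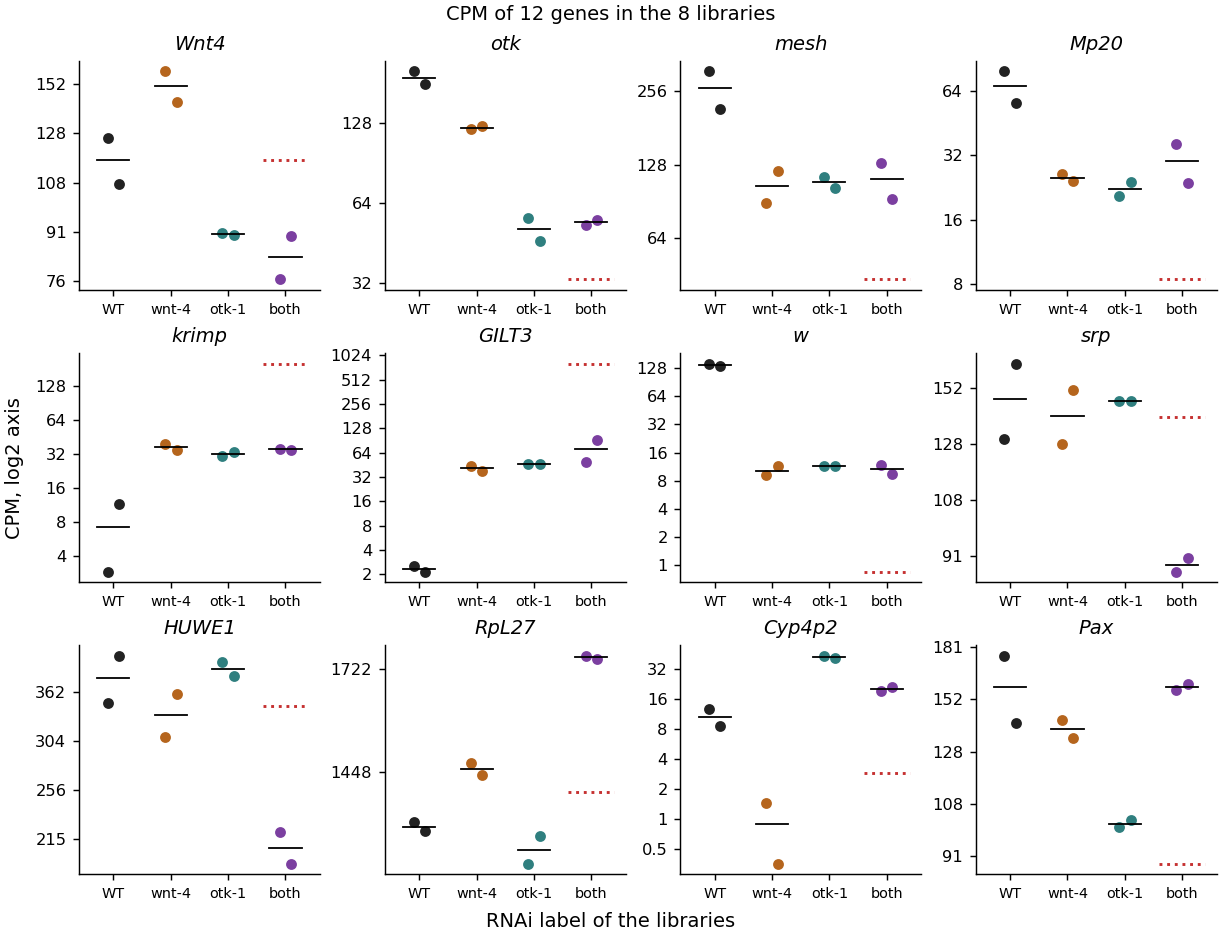
CPM (log2 axis) of 12 genes in the 8 libraries; points are libraries, bars the group means and the dotted line the level that the sum of both single changes corresponds to. For mesh, Mp20 and w the double RNAi lies above that line, for krimp and GILT3 below it, and for srp and HUWE1 all 6 other libraries lie above the double RNAi.

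Of the 10 highest interactions chosen by rank, 8 belonged to Jonah serine proteases of digestion. The rank asked for a mean of at least 100 counts over all libraries, which some of them reached only through WT. Jon25Bi, for example, had 1371 and 967 counts in WT and 6 to 98 in the 6 RNAi libraries. Their place in the ranking is therefore not a result about this family. Of 23 tested larval gut enzymes 15 were positive and none negative (65.2% called). Jon25Bi, a protease of the larval midgut, had 38.1 and 27.7 CPM in WT, 0.672 and 0.327 with the wnt-4 label, 0.222 and 0.207 in otk-1 RNAi and 3.36 and 0.222 with double RNAi. A similar split stood in Jon99Cii, with 38.9 and 57.1 CPM in WT, 0.403 and 0 with the wnt-4 label, 4.47 and 0.710 in otk-1 RNAi and 12.5 and 0 with double RNAi. In the double RNAi most of these transcripts were in replicate 1, and near-identical copies make the values of single Jonah genes uncertain. The summed level of the 30 listed enzymes was 580 and 550 TPM (reads per transcript length, scaled to a fixed total) in WT and 45.6 to 146 in the other 18 libraries, and no listed gene was at 0 in both WT libraries. The part of this difference in the other results was not tested.

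Markers of adult females and muscle were summed in the same way. Adult female and egg shell genes summed to 7.37 and 6.66 TPM in WT and 2.77 to 6.51 in the other 18 libraries, with 3 of 15 at 0 in both WT libraries, and 1 of its 3 tested members, psd, was called (3.28 ± 0.82). Muscle genes were present in all 20 libraries, from 3160 to 11700 TPM in sum. Pebp1, a phosphatidylethanolamine-binding protein, and the stock marker w completed the 10. Pebp1 stood at 20.5 and 21.2 CPM in WT, 2.72 and 2.91 with the wnt-4 label, 1.68 and 1.95 in otk-1 RNAi and 6.95 and 1.55 with double RNAi (4.11 ± 0.86, adjusted p = 0.0241).

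Some maternal and germline genes fell short of a summed rise. Of 22 genes of small RNA silencing, which restrains transposons in the germline, 9 were negative and none positive (40.9% called), with a median sum of 2.07 and a double change of 1.17. The piRNA factor krimp measured 2.94 and 11.7 CPM in WT, 39.0 and 34.7 with the wnt-4 label, 30.8 and 33.0 in otk-1 RNAi and 35.6 and 34.9 with double RNAi. Its single changes of 2.33 and 2.12 summed to 200 CPM (interaction -2.18 ± 0.68, adjusted p = 0.0614). The 6 RNAi libraries lay close together, and WT was below all of them. The helicase armi gave -1.77 ± 0.56 and mael -1.45 ± 0.36.

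Of 23 maternal and germ plasm genes 5 were negative and of 30 mitotic genes 6, with no positive member in either list (21.7% and 20% called, near the share of all genes). Polar granule component (pgc), which silences transcription in pole cells, had 2.94 and 15.8 CPM in WT and 39.9 to 59.3 in the RNAi libraries (-2.37 ± 0.89, adjusted p = 0.0958). The translational repressors cup (-1.91 ± 0.67) and bru1 (-1.92 ± 0.68) were alike. Cyclin E (CycE), which drives entry into S phase, measured 101 and 211 CPM in WT, 231 and 259 with the wnt-4 label, 274 and 315 in otk-1 RNAi and 197 and 195 with double RNAi. Here the double RNAi libraries lay between those of WT and below both single groups (-1.24 ± 0.40, adjusted p = 0.066). Of 36 proteasome genes 4 were negative (11.1% called), among them Rpt6R (-2.88 ± 0.55), a variant subunit that also rose in each RNAi group, from 0.527 and 0.715 CPM in WT to 3.63 to 5.58.

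The 10 lowest interactions chosen by rank came from genes of several functions that were low in WT. GILT3, a lysosomal thiol reductase on 3R at 23677358 to 23678421, stood at 2.53 and 2.17 CPM in WT, 44.3 and 37.6 with the wnt-4 label, 46.7 and 46.2 in otk-1 RNAi and 49.4 and 91.3 with double RNAi (-3.52 ± 0.42, adjusted p = 0.000978). The sum of the single changes corresponded to 809 CPM. The cytochrome P450 Cyp6d4 rose from 7.44 and 6.78 CPM to 110 and 114, 51.7 and 61.4, and 115 and 180 in the same order (-2.59 ± 0.33, adjusted p = 0.00198), and its double RNAi was above every library of otk-1 RNAi and of the wnt-4 label. The maternal protease gd gave -3.39 ± 0.71, from 0.444 and 1.17 CPM in WT to 6.64 to 8.73 in the RNAi libraries. Mabi (-2.99 ± 0.48), l(3)72Dp (-2.54 ± 0.44), the cyclosome subunit APC7 (-2.48 ± 0.85), Boot (-2.38 ± 0.71) and the repair nuclease subunit Ercc1 (-2.36 ± 0.68) completed the list with y and pgc.

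Genes that mark fly stocks were non-additive as well. The eye pigment transporter w, on X at 2790599 to 2796466, had the smallest adjusted p of the named genes (2.84e-06), with 143 and 134 CPM in WT, 9.14 and 11.4 with the wnt-4 label, 11.6 and 11.5 in otk-1 RNAi and 11.9 and 9.32 with double RNAi (3.64 ± 0.24). The RNAi groups overlapped each other, far below WT. The pigmentation gene y rose from 3.03 and 4.15 CPM to between 18.5 and 25.6 (-2.91 ± 0.31), and v, an enzyme of eye pigment synthesis, fell from 10.7 and 8.41 to between 2.72 and 5.48 (2.22 ± 0.41). Fly stocks can carry mutant or marker copies of these genes, and the genotypes of these crosses at them are not given in the sources used. In TPM, w was at 71.8 and 68.8 in WT and at 4.33 to 48.9 in the 12 libraries outside these 4 groups, so WT was above every other library. How far a difference in stock between WT and the crosses enters the other genes cannot be told apart from the hairpins by these 4 groups.

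The 24 genes that exceeded the sum were long, with a median effective length of 6442 bases against 1586 in all genes tested. The 261 genes of opposite sign, described below, had a median of 2864 bases. In 20 of the 24 the double RNAi was lower than the sum. In 21 of the 24 neither single change was called, and in trx, CG14715 and CG32267 the change with the wnt-4 label was. In 23 of 24 both double RNAi libraries lay outside the range of the other 18 libraries of the series (20 below). The share of all genes tested was 20.3% (12.9% below). Among the 261 genes of opposite sign it was 54.8% (140 genes below), so this trait was not particular to the 24. These ranges, too, were taken without TMM scaling. All 24 were chosen after their values were seen, and no test of this class as a group was made.

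The ubiquitin ligase HUWE1, on X at 15712628 to 15731935, shows the pattern, with 348 and 411 CPM in WT, 308 and 359 with the wnt-4 label, 402 and 382 in otk-1 RNAi and 220 and 197 with double RNAi. The single changes were -0.19 and 0.05, the double change -0.86, and the interaction -0.72 ± 0.23 (adjusted p = 0.0669). The double RNAi did not overlap any other group. In TPM the double RNAi libraries were at 11.6 and 8.56 and the 12 libraries of the other groups at 16.4 to 26.6.

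The GATA factor serpent (srp), needed for blood and fat body, measured 130 and 164 CPM in WT, 128 and 151 with the wnt-4 label, 146 and 146 in otk-1 RNAi and 86.3 and 90.0 with double RNAi (-0.65 ± 0.21, adjusted p = 0.069). Its 6 other libraries overlapped, and the double RNAi stood apart below them. Also lower were the histone methyltransferase trx (-0.62 ± 0.22), the Polycomb group gene Asx (-0.73 ± 0.20) and Bicra, a subunit of a Brahma complex (-0.69 ± 0.26). The zinc finger factors shn (-0.80 ± 0.28), which acts downstream of Dpp, and seq (-0.57 ± 0.21) were lower too.

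Other members were the ubiquitin ligase ctrip (863 and 936 CPM in WT, 853 and 904 with the wnt-4 label, 953 and 885 in otk-1 RNAi, 576 and 577 with double RNAi), the TORC2 subunit rictor, the lipid kinase Pi4KIIIalpha, the RNA-binding protein larp and the autophagy factor Epg5. Their interactions ran from -0.48 to -0.64. The 8 further genes below the sum were Dora, Duba, mthl1, snz, Sptz, tay, tweek and waw (-0.40 to -0.65).

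The 4 genes above the sum were short. They were the ribosomal proteins RpL9 (0.42 ± 0.15) and RpL27 (0.33 ± 0.12), CG14715 and CG32267. RpL27 had 1330 and 1310 CPM in WT, 1470 and 1440 with the wnt-4 label, 1240 and 1300 in otk-1 RNAi and 1760 and 1750 with double RNAi, above every other library of the 4 groups. On the TPM scale this order was not kept, with 4610 and 4790 in WT and 5030 and 4110 in the double RNAi.

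Of 90 cytosolic ribosomal genes 6 were positive and 2 negative, and of 74 mitochondrial ones 5 and 0 (8.89% and 6.76% called, below the 19.7% of all genes). The negative pair, RpL37-2 and RpS10a, are low-level paralogs that rose in each single RNAi. The double RNAi was higher than otk-1 RNAi in 54 of the 90 and lower in none, against 19.5% higher and 11.7% lower of all genes.

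In 261 genes the double change ran against the summed single changes, and in 206 of them the singles summed to a rise and the double RNAi was lower than WT. The medians of these 206 were 0.18 and 0.28 for the single changes and -0.23 for the double change, so the class holds small changes on both sides of WT. Rhinoceros (rno), a PHD finger protein, measured 136 and 186 CPM in WT, 162 and 179 with the wnt-4 label, 177 and 201 in otk-1 RNAi and 101 and 83.8 with double RNAi (-1.12 ± 0.26, adjusted p = 0.0314). The double RNAi libraries were the lowest of the 8. The TORC1 subunit raptor gave -1.22 ± 0.31, the replication kinase Cdc7 -1.22 ± 0.36 and the pair-rule genes ftz and prd -1.66 ± 0.61 and -1.91 ± 0.72. For ftz and prd the 2 libraries labelled wnt-4 RNAi differed from each other by over 2-fold, at 11.2 and 25.1 CPM for ftz and 6.55 and 19.2 CPM for prd.

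The 55 genes of the other sign included genes whose single changes had opposite signs. Cyp4p2, a cytochrome P450, stood at 12.6 and 8.67 CPM in WT, 1.45 and 0.359 with the wnt-4 label, 43.5 and 41.2 in otk-1 RNAi and 19.1 and 20.9 with double RNAi. The single changes were -3.56 and 1.99, the double change 0.91 and the interaction 2.48 ± 0.50 (adjusted p = 0.0225). On the linear CPM scale the interaction of Cyp4p2 had the other sign (-12.6), so its class depends on the scale. Of the 261 genes, 259 kept their sign on that scale. No 2 groups overlapped, and the double RNAi lay between otk-1 RNAi and WT. Its neighbour and paralog Cyp4p1 gave 1.36 ± 0.40 with the same order, and Cyp9f3 was, among these 4 groups, lowest with the wnt-4 label alone (6.80 and 4.38 CPM in WT, 1.11 and 1.01, 4.95 and 6.07, 4.45 and 6.99 in the usual order, 2.45 ± 0.41). In other groups of the series Cyp9f3 was also below WT (4.0 and 2.65 TPM), with 1.02 and 0.75 TPM in otk-2 RNAi and 0.98 and 1.15 in UAS-wnt-4.

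Paxillin (Pax), an adaptor of integrin adhesions, had 176 and 141 CPM in WT, 142 and 134 with the wnt-4 label, 99.7 and 102 in otk-1 RNAi and 157 and 160 with double RNAi (0.86 ± 0.17, adjusted p = 0.0225). Only otk-1 RNAi was clear of the other groups, although Pax overlaps 6 annotated genes. The insulin decoy Sdr (0.82 ± 0.23), the acetylcholine receptor subunit nAChRalpha4 (0.90 ± 0.22) and the citrate carrier sea (0.94 ± 0.24) were also lowest in otk-1 RNAi.

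Between the double RNAi and the libraries labelled wnt-4 RNAi 72 genes were called (32 higher, 0.287%, and 40 lower, 0.359%, in the double RNAi). That contrast holds no WT library. Besides otk (-1.18 ± 0.18, adjusted p = 0.00885) and Wnt4, the lower genes included the atypical cadherins ft (264 and 305 CPM with the wnt-4 label, 168 and 160 in the double RNAi, -0.80 ± 0.17) and ds (140 and 143 against 86.3 and 82.8, -0.74 ± 0.17) and the FERM protein ex (98.8 and 111 against 60.2 and 61.7, -0.78 ± 0.17). These 3 genes act at the top of the Hippo pathway, which limits tissue growth, and for each the groups did not overlap. In none of them was the interaction called, and in otk-1 RNAi the levels were 298 and 277, 151 and 132, and 105 and 100 CPM. The mesodermal repressor zfh1 (-0.82 ± 0.17) and the methylcytosine dioxygenase relative Tet (-0.68 ± 0.16) were lower too.

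Genes higher in the double RNAi than with the wnt-4 label were in part those that the wnt-4 label alone lowered. The antifungal peptide relative Drsl5 had 102 and 91.0 CPM in WT, 16.2 and 11.1 with the wnt-4 label, 140 and 136 in otk-1 RNAi and 58.4 and 131 with double RNAi (double against the wnt-4 label 2.80 ± 0.37, interaction 2.28 ± 0.50). Others were low in these groups unless the otk-1 hairpin was present. CG43755 was at 0.0833 and 0.114 CPM in WT, 0.840 and 0.196 with the wnt-4 label, 52.2 and 51.1 in otk-1 RNAi and 34.7 and 28.2 with double RNAi. The sodium-proton exchanger Nha2 (3.29 ± 0.42) and the peptide receptor CCHa1-R (3.35 ± 0.47) were likewise highest, among these 4 groups, in both with that hairpin, and their interactions were not called. Outside them, Nha2 reached 1.84 and 1.28 TPM in UAS-wnt-4, against 1.98 and 1.73 in the double RNAi.

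In 4 genes the otk-1 change was called in both settings with opposite signs, lower against WT and higher on top of the wnt-4 label: Ada1-1, a copy of a SAGA-type coactivator subunit, CG34437, Jhbp6 and the cargo receptor p24-2. The last had 63.0 and 38.3 CPM in WT, 6.32 and 6.43 with the wnt-4 label, 23.4 and 23.8 in otk-1 RNAi and 16.4 and 18.8 with double RNAi, with the 4 groups in separate ranges (interaction 2.56 ± 0.30, adjusted p = 0.000978).

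Of 25 canonical Wnt genes 1 was called (4.0%), the nuclear co-activator pygo (-0.90 ± 0.32), which rose from 117 and 191 CPM in WT to 512 and 456, 300 and 316, and 471 and 572. Of 16 Wnt ligands and co-receptors only otk itself was called (0.71 ± 0.26, adjusted p = 0.0889), since the libraries labelled wnt-4 RNAi were also below WT and the double RNAi no lower than otk-1 RNAi. The paralog otk2 was at 67.5 and 61.6 CPM in WT and 37.4 to 50.5 in the RNAi libraries, with an interaction of 0.28 ± 0.20 that was not called. None of 11 Wg targets, 11 Hox genes or 24 neurogenesis genes was called (0% against 19.7% of all genes). At the level of single genes, wg (-0.22 ± 0.29), its target en (-0.10 ± 0.35), the adaptor dsh (-0.31 ± 0.27), Egfr (-0.22 ± 0.24), the FGF ligand ths (-0.23 ± 0.20) and the dorsal-ventral protease ea (-0.92 ± 0.39) did not pass.

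In the Hedgehog list 3 of 19 were negative (15.8%), the co-receptors boi (-0.71 ± 0.18) and ihog (-0.66 ± 0.24) and the acyltransferase rasp. The Hippo list had 3 negative of 25 (12%: CycE, Tao, sav) and the epidermal growth factor and MAPK list 2 of 26 (7.69%: Dsor1, Ras85D). The Notch (4.0%), JNK (7.14%), planar polarity (5.0%) and apical-basal polarity (5.56%) lists had 1 each. These were dx (-1.01 ± 0.23), slpr (-0.99 ± 0.20), Rok (-0.73 ± 0.20) and Patj (-0.70 ± 0.20). All these shares lay below the 19.7% of all genes. The JNK pathway kinase slpr measured 64.5 and 77.5 CPM in WT, 90.9 and 94.1 with the wnt-4 label, 90.7 and 101 in otk-1 RNAi and 61.6 and 63.7 with double RNAi, so each single group was above WT and the double RNAi below it. Of 21 segmentation genes 4 were negative (19%, near the share of all genes), cad (-1.72 ± 0.42), hb (-1.25 ± 0.41), ftz and prd. Caudal was at 32.3 and 61.4 CPM in WT and 129 to 160 in the RNAi libraries.

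**Figure D4:**
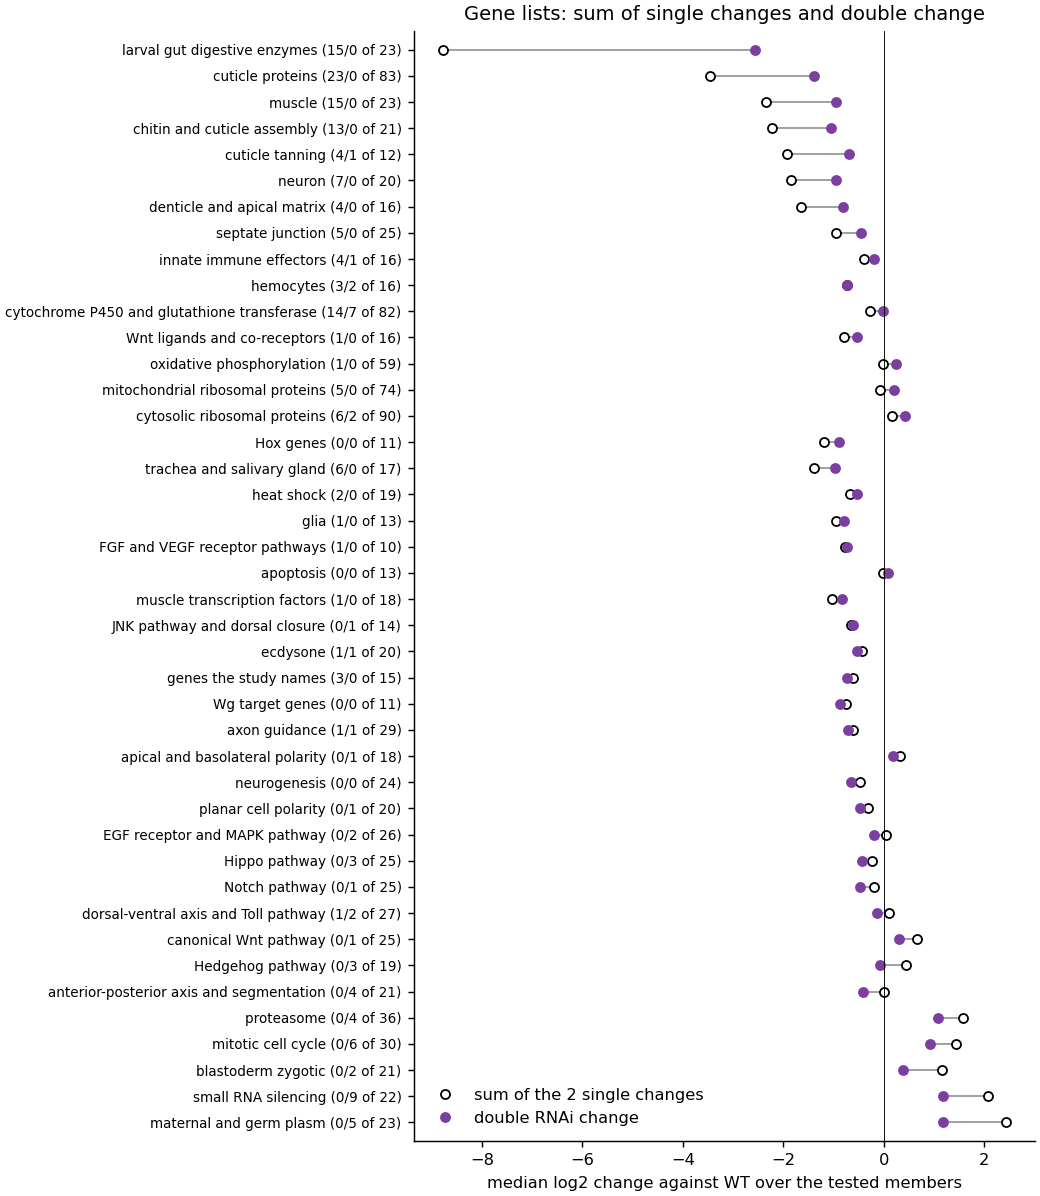
Median log2 change against WT over the tested members of each gene list with at least 10 of them: sum of both single changes (open) and double RNAi change (filled). Labels give the members with a positive and a negative interaction of those tested; gut enzymes, cuticle proteins and muscle at the top fall short of a summed fall, germ plasm and small RNA silencing genes at the bottom of a summed rise.

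Blood cells, immunity and detoxification were mixed. Of 16 hemocyte genes 3 were positive and 2 negative (31.2% called, against 19.7% of all genes). The collagen IV chains Col4a1 (1090 and 671 CPM in WT, 297 to 505 in the RNAi libraries, 1.67 ± 0.42) and vkg (1.58 ± 0.45) and the matrix protein Ppn fell short of a summed fall, the phagocytic receptor crq (-0.71 ± 0.19) fell short of a summed rise, and srp exceeded the sum. Of 16 immune genes 4 were positive and 1, GILT3, negative (31.2% called). Of 82 cytochrome P450 and glutathione transferase genes 14 were positive and 7 negative (25.6% called).

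The other double RNAi groups of the series allow the same calculation, which was added after the data were seen. The interaction of wnt-4 and otk-2 RNAi was called in 9 genes (0.0807%) and that of otk-1 and otk-2 RNAi in 19 (0.17%), with 1328 and 830 genes at an unadjusted p under 0.05. They share the WT libraries, and one single RNAi group each, with the interaction described here. In otk-2 RNAi alone 199 genes (1.78%) differed from WT. The stock marker w was at 5.56 and 4.33 TPM in the otk-2 RNAi libraries, as low as in the other RNAi groups, whereas the marker v was near its WT level there. The level of w alone does not show a shared stock background, and the part of stock in these counts was not tested. Tested directly, the interaction of wnt-4 and otk-1 differed from that of otk-1 and otk-2 in 229 genes (2.05%, 1960 at an unadjusted p under 0.05) and from that of wnt-4 and otk-2 in 10 (0.0897%, 2091 at an unadjusted p under 0.05).

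The number of calls rested on few libraries. Without WT replicate 1, 103 genes (0.928%) were called, and without WT replicate 2, 4338. It was 179 to 1291 when 1 of the RNAi libraries was left out (294 and 179 for the otk-1 RNAi replicates). With otk-2 RNAi libraries in the place of WT 75 genes (0.672%) were called, and with UAS-wnt-4 libraries 841 (7.54%). When the stage score entered as a covariate 1 gene was called (0.00897%), w (543 at an unadjusted p under 0.05). The score is built from the muscle, neuron, cuticle, maternal and blastoderm lists. It differs between WT and the RNAi groups, so this fit removes what the hairpins and the score share. The next counts, for the 24 genes that exceeded the sum, are of interactions called in any class. In all, 8 genes exceeded the sum with the gene length trend removed and 4 in a fit of the 8 libraries alone. Of the 24 genes that exceeded the sum, 24 were called by DESeq2, 19 with the gene length trend removed and 5 in a fit of the 8 libraries alone, but none without WT replicate 1, without otk-1 RNAi replicate 1 or 2, or with the stage score. The number was 1 or 4 without a library labelled wnt-4 RNAi, 2 or 11 without a double RNAi library and 1 with otk-2 RNAi in place of WT.

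**Figure D5:**
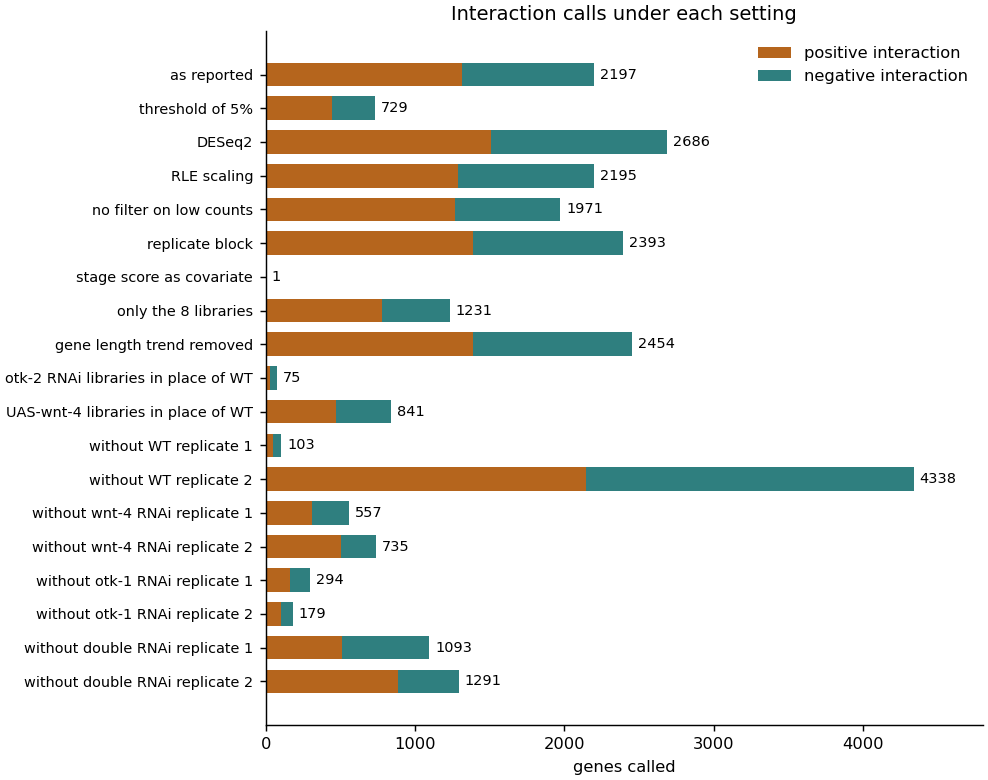
Number of genes with a called interaction (horizontal) under each setting, split by sign. The count is 2197 as reported, 103 without WT replicate 1 and 1 when the stage score is a covariate.

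In all 8 fits that left out 1 library, 87 genes were called, and 30 were called in these and in every other alternative but the stage covariate. Among the 30 were v, Cyp6d4, Rpt6R, the glutathione transferase GstT3 (-2.32 ± 0.24), the diuretic hormone receptor Dh44-R2 (2.50 ± 0.38), the TGF-beta family ligand mav (0.95 ± 0.15) and the vesicle regulator Rab32 (-1.28 ± 0.20). These 7 genes fell short of the sum. The gene w was called in all alternatives, the stage covariate included, except with otk-2 RNAi in place of WT (-0.066). No gene was called in every alternative.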

How the data were processed

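Per the labels and the methods of the study, total RNA of 20 libraries was sequenced, and the authors aligned reads with STAR 2.7.1a to dm6 and estimated genes with RSEM 1.3.1, which divides reads that match several genes. The deposited files hold expected counts, TPM and effective length per gene. The expected counts of the authors, 11.6% of which were not whole, were rounded. The deposited TPM values were printed only as levels, and the deposited effective lengths were used for gene length (a value other than expression). Each file lists 17714 genes. Of these, 127 have no name in the Ensembl annotation used for names and dm6 positions.

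The gene types that the study removed (426 genes, 5.98 to 10.9% of counts) and genes with a mean under 10 counts were left out, leaving 11154. All 20 libraries entered a fit of edgeR 4.0.16 (TMM, quasi-likelihood test, Benjamini-Hochberg threshold of 10%), with 10 residual degrees of freedom and a common dispersion of 0.0336, so the spread between libraries limits all but the lowest genes. The interaction is the double RNAi minus both single groups plus WT. WT enters both single changes and the double change. Tests were also run on simulated counts in which only the double RNAi was shifted, in some genes. Those counts held no outlying WT library, so they cannot show how far calls that rest on WT hold.

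Alternatives were DESeq2 1.42.0, RLE scaling, no filter, a 5% threshold, a block by replicate number, the stage score entered as a covariate, only the 8 libraries, removal of the gene length trend, other libraries in place of WT, and leaving out each library. The members, gene lists and alternatives were chosen with earlier results of these data known. Named genes were those the study names, the 10 highest and 10 lowest interactions (called, mean of at least 100 counts, no CG or CR number, same sign in 16 of 16 library choices), and up to 4 called members of each list with any of the other sign. A further part, genes called under every alternative, found 0. Genes that exceeded or opposed the sum, those called between the double RNAi and the wnt-4 label, and those held under most alternatives were named after their values were seen. R 4.3.3, Python 3.11.15, pandas 2.3.3 and matplotlib 3.10.9 were used. FPKM values were not used.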

Additional observations from a re-analysis of the deposited data

Results flagged for a closer look

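The change of an RNAi label in WT embryos and in embryos with the other hairpin was compared directly by the interaction, which was called in 2197 genes. The wnt-4 label gave changes called in both settings with opposite signs in 103 genes, 60 of them higher and 43 lower against WT. For the otk-1 label the same held for 4 genes, with interactions of 2.56 for p24-2, 5.54 for Ada1-1, 2.83 for Jhbp6 and 3.58 for CG34437 (edgeR adjusted p of 0.000978, 0.0081, 0.00975 and 0.016). No group had enough libraries for a test of single outlying values.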

How the results depend on the processing

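The count of interaction calls (2197) moved to 729 at a threshold of 5%, 1 with the stage score as a covariate, 1231 with only the 8 libraries, 75 with otk-2 RNAi and 841 with UAS-wnt-4 libraries in place of WT, and 103 to 4338 when 1 library was left out. DESeq2 (2686), RLE scaling (2195), no filter (1971) and the gene length trend (2454) kept it within 1.5 times. The double RNAi against the libraries labelled wnt-4 RNAi (72) gave 32 at 5%, 356 with DESeq2, 170 with the stage score, 29 with only the 8 libraries and 15 to 187 without 1 library. Against otk-1 RNAi (3476) the count was 1090 to 3922 without 1 library and 2495 to 3808 in the other alternatives. The replicate block gave 2393 interaction calls. The replicate numbers are not shown to pair the libraries: deviations of replicate 1 correlated by -0.004 to 0.112 between groups.

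Interactions of opposite sign appeared with otk-2 RNAi in place of WT for Jon99Cii (-4.483), Jon65Aiii (-3.706), Jon25Bii (-1.69), Jon99Ciii (-1.68), Jon99Fii (-1.41), otk2 (-1.03), Jon25Bi (-0.85), lbl (-0.40), Cyp4p1 (-0.36), w (-0.066), Pebp1 (-0.001) and y (0.10). With the stage score they did for Rim (-0.42), dyl (-0.41), brp (-0.34), Cht7 (-0.235), Cyp301a1 (-0.13), Dif (-0.10), VGlut (-0.069), up (-0.033), alrm (-0.008), cup (0.042), Tao (0.12), BubR1 (0.14) and pygo (0.14). With UAS-wnt-4 libraries, which overexpress it, Wnt4 gave 4.075. Without double RNAi replicate 1, Jon99Cii gave -1.54 and Jon99Ciii -0.50. The cause of these changes was not tested. With 2 libraries a group, differences in embryo age, stock or driver between WT and all RNAi crosses cannot be told apart from the hairpins, and changes of low genes rest on few counts.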
